A study of Mus musculus with 14 samples.

Results

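The 30 genes described here make, sense, store and export cholesterol, and they were taken by symbol from the 55335 genes counted in every library. They comprise 18 enzymes of sterol synthesis from Hmgcs1 to Dhcr7 with Acat2, 5 genes of sterol control (Insig1, Srebf2, Nr1h2, Nr1h3 and Mylip), 5 of storage and lysosomal handling (Soat1, Ch25h, Npc1, Npc2 and Lipa) and the efflux pumps Abca1 and Abcg1. Ch25h, which makes an oxysterol, is counted here with the storage and lysosomal genes. The rule for membership is function, and it uses no measured value, although earlier results of these data were known when the list was drawn up. Single-cell RNA sequencing was done on the spinal cord of mice aged P115-120 (days after birth), with 14 libraries in 4 groups. The SOD1G93A group (3 libraries, strain B6SJL-Tg(SOD1*G93A)1Gur/J) carried the mutant human SOD1 transgene that models amyotrophic lateral sclerosis. The SOD1G93A/Clec7a-KO group (4 libraries) carried the transgene and lacked the myeloid receptor gene Clec7a, the Clec7a-KO group (4 libraries, B6.129S6-Clec7atm1Gdb/J) lacked the receptor without the transgene, and the nTg group (3 libraries) was non-transgenic. The strain names of the SOD1G93A and Clec7a-KO groups differ in background, and the labels do not say whether the controls were littermates. The labels do not say whether a library came from 1 animal, so p-values measure the spread between libraries.

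Cells build cholesterol from acetyl-CoA through mevalonate, isoprenoids, squalene and lanosterol, in a chain of enzymes whose genes are switched on together by the transcription factor SREBP2 (gene Srebf2) when membrane sterol is low. INSIG proteins hold SREBP2 back when sterol is ample, and oxysterols then activate the liver X receptors (Nr1h2 and Nr1h3), which raise the efflux pumps. Sterol taken up with debris is freed in the lysosome by the lipase Lipa, moved out by Npc2 and Npc1, and exported or esterified for storage by Soat1. In the adult nervous system astrocytes and oligodendrocytes make most of the sterol, while microglia take in sterol with myelin debris.

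Promoter sequences are shown for 3 genes whose levels the results turn on: Hmgcs1 and Insig1, both controlled by SREBP2, and Ch25h, which makes 25-hydroxycholesterol. They come from RefSeq (GRCm38.p6) and run up to 250 bases before the gene's start, shortened where an annotated exon begins. Capitals mark a sterol regulatory element (TCACNCCAC) or a CCAAT box (CCAAT), each searched on both strands, so that a match on the other strand is printed as its reverse complement. The printed stretch of Hmgcs1 held 1 sterol element and 3 CCAAT boxes, that of Insig1 held 1 CCAAT box, and that of Ch25h held neither.
Hmgcs1, chr13:119690101-119690350, plus strand: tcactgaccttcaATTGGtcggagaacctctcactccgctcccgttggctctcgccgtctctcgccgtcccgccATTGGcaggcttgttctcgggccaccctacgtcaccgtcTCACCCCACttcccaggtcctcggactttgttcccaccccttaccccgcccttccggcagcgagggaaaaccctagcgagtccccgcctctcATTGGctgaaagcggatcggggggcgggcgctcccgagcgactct
Insig1, chr5:28071162-28071362, plus strand: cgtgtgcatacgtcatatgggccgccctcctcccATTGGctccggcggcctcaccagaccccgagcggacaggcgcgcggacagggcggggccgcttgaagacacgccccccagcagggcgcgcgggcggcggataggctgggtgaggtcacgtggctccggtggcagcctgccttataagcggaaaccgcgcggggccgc
Ch25h, chr19:34475165-34475382, minus strand: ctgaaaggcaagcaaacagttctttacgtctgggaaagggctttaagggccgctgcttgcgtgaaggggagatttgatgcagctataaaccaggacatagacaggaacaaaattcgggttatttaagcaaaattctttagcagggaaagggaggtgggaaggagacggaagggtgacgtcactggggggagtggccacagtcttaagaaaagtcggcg
Of the 30 genes, 25 had an entry in the promoter table, with windows of 250 bases before to 50 after the start. A CCAAT box lay in 20 of these 25 windows (80%), among them 14 of the 15 synthesis genes with an entry (all but Acat2), against 41.1% of the windows of 27025 genes. The windows without one were those of Acat2, Nr1h2, Nr1h3, Ch25h and Abca1. A sterol element in these letters lay in 1 of 25 (Hmgcs1) and in 1.44% of all genes. The lysosomal CLEAR element (TCACGTGA) lay in 0 of 25 and 1.12% of all genes, and the DR4 element of the liver X receptors in 0 of 25 and 0.0962%.

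The 14 libraries held 28819852 to 141204912 UMIs (unique molecular identifiers, 1 per captured RNA molecule), and 89755 cells passed the filters. Clusters rebuilt without the 30 genes gave 49061 microglia-like cells in 8 clusters, 5805 astrocyte-like cells in 2 and 3907 oligodendrocyte precursor-like cells, called microglia, astrocytes and precursors from here on. No cluster of mature oligodendrocytes was found: 56 cells carried at least 4 of 8 mature markers, so the oligodendrocyte lineage is represented here by its precursors, after a protocol that removed myelin with beads. Clec7a had 57449 to 101134 UMIs in the SOD1G93A libraries, 755 to 1767 in nTg, 74 to 240 in SOD1G93A/Clec7a-KO and 33 to 110 in Clec7a-KO. Which exons the deletion removes is not given in the sources used here. Any pair of libraries shared 2 to 44 cell barcodes, at most 0.474% of the smaller one. UMIs were summed per library and class: 10563774 to 98169561 for microglia, 145986 to 5542212 for astrocytes and 601169 to 3570822 for precursors. The astrocyte sum of SOD1G93A/Clec7a-KO replicate 4 came from 35 cells.

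In the nTg cords, astrocytes and precursors carried far more RNA of the synthesis enzymes than microglia did. On CPM, a gene's UMIs scaled to the same class total in every library, which need no length scaling because each molecule was tagged at its 3′ end, the 18 enzymes summed to 374 ± 14.6 (SD, n = 3) in microglia, 2241 ± 125 in astrocytes and 1420 ± 175 in precursors. Microglia lay below precursors in all 14 libraries for 17 of the 18 enzymes and below astrocytes in all 14 for 16 of them. Ebp, the sterol isomerase, was the exception against precursors: it measured 63.7 ± 7.86 in microglia, 70.3 ± 9.83 in astrocytes and 40.9 ± 3.15 in precursors. Msmo1, a sterol demethylase subunit, measured 53.1 ± 3.54 in microglia, 537 ± 50.6 in astrocytes and 162 ± 17.8 in precursors. Fdft1, which makes squalene, measured 9.79 ± 1.41, 177 ± 10.2 and 66.0 ± 15.4 in the same order. Classes came from clusters of these cells, so these levels are a description without a test.

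The genes of handling and export were spread differently over the classes. Npc2, the soluble lysosomal sterol carrier, measured 786 ± 58 CPM in nTg microglia, 248 ± 9.27 in astrocytes and 178 ± 6.47 in precursors, and microglia were highest in all 14 libraries. Mylip, a ligase that marks lipoprotein receptors for degradation, measured 251 ± 52.4, 13.2 ± 1.51 and 9.72 ± 2.03 in that order. Microglia were thus also highest for Mylip, and for Lipa and Ch25h, in all 14 libraries. Soat1 was highest in nTg astrocytes at 224 ± 9.35, against 77.8 ± 10.3 in microglia and 75.7 ± 3.78 in precursors, whose ranges overlapped. The efflux pump Abca1 measured 144 ± 6.87 in astrocytes, 90.7 ± 6.38 in microglia and 81.5 ± 11.5 in precursors. Abcg1 was highest in precursors at 93.7 ± 9.98, with 23.1 ± 4.79 in microglia and 1.58 ± 0.851 in astrocytes.

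**Figure D1:**
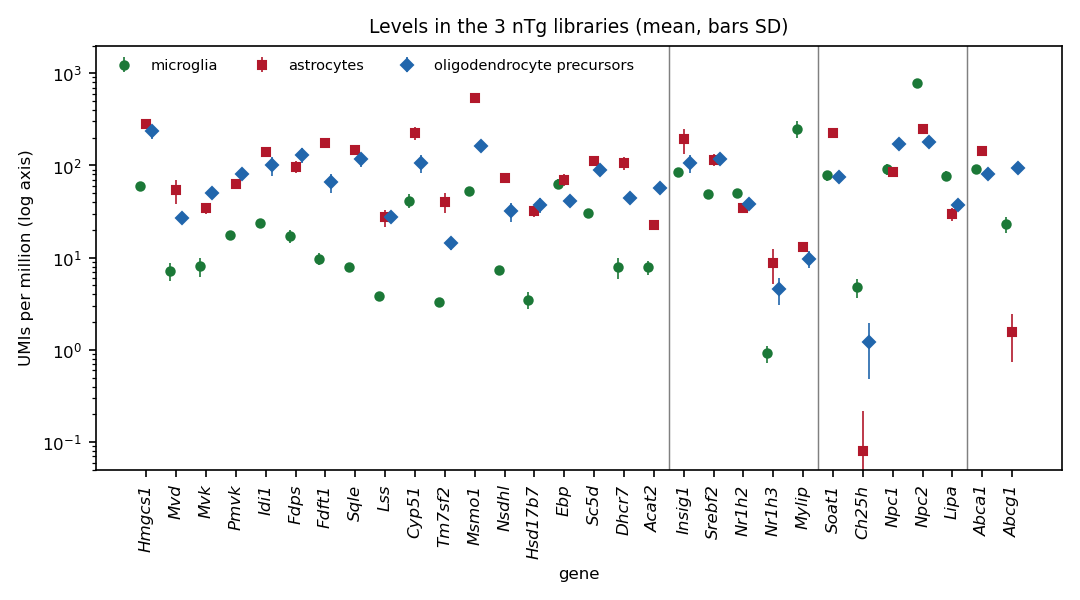
Level of each of the 30 genes in the 3 nTg libraries, in CPM of the class (log axis); points are means and bars SD, and grey lines separate synthesis, control, storage and lysosome, and efflux. Synthesis genes sit lower in microglia than in astrocytes, with Ebp close between them (63.7 and 70.3), while Npc2, Lipa, Mylip and Ch25h sit highest in microglia.

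With the transgene, microglia carried more RNA of the genes that handle and export sterol. In SOD1G93A against nTg, 4 of the 5 storage and lysosomal genes (Soat1, Ch25h, Npc2 and Lipa) and both efflux pumps rose, by 1.29 to 5.38 on the log2 scale. In SOD1G93A/Clec7a-KO against Clec7a-KO the same 6 rose, by 1.17 to 5.22. Ch25h gave the highest value in both comparisons. The test was edgeR's quasi-likelihood test on summed UMIs, with Benjamini-Hochberg adjustment over 16584 genes. It called 11 of the 30 genes in the first comparison, all higher, where 33.4% of all genes were called and 20% were called higher. It called 20 of 30 in the second, again all higher, where 47.3% were called and 26% called higher. The 11 called in the first were all among the 20 of the second. The genes' median log2 fold change was 0.30 and 0.68, against 0.01 and 0.00 over all genes tested. Groups did not overlap for 19 of the 30 genes in the first comparison (54.2% of all genes) and for 17 in the second (36.9%).

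Values by library are CPM of the class on edgeR's TMM scale, which sets the bulk of genes as equal between libraries. Ch25h, the cholesterol 25-hydroxylase, measured 4.62, 2.99 and 4.15 in the nTg libraries and 77.2, 224 and 192 in SOD1G93A. In Clec7a-KO it measured 1.86, 6.08, 4.07 and 4.93, and in SOD1G93A/Clec7a-KO 103, 88.0, 220 and 214. Every library with the transgene thus lay above every library without it. The log2 fold change was 5.38 ± 0.54 (SE, edgeR adjusted p = 5.7e-06) in SOD1G93A and 5.22 ± 0.46 (adjusted p = 9.8e-07) in SOD1G93A/Clec7a-KO. Ch25h is a gene on chromosome 19 (34473778 to 34475164, minus strand, GRCm38).

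Npc2 was the most abundant of these transcripts in microglia. It measured 668, 601 and 669 in nTg against 2412, 2614 and 2096 in SOD1G93A. The values were 684, 672, 539 and 826 in Clec7a-KO against 2297, 3016, 2873 and 2557 in SOD1G93A/Clec7a-KO. Its lowest library with the transgene was well above its highest without, with log2 fold changes of 1.88 ± 0.19 (adjusted p = 6.4e-06) and 1.98 ± 0.17 (adjusted p = 5.5e-07). Lipa, lysosomal acid lipase, measured 66.4, 56.1 and 68.3 in nTg and 224, 239 and 253 in SOD1G93A. It measured 56.1, 57.2, 60.0 and 66.7 in Clec7a-KO and 208, 275, 192 and 172 in SOD1G93A/Clec7a-KO. Again no value with the transgene reached down to the others (1.91 ± 0.17 and 1.82 ± 0.15, adjusted p = 2e-06 and 3.9e-07). Npc1, the membrane partner of Npc2, passed the test in neither comparison, with 0.32 ± 0.14 and 0.20 ± 0.12 on the TMM scale, and had -0.14 and -0.31 on library totals, where the second was called lower.

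Soat1, which esterifies cholesterol for storage in droplets, followed the same pattern at a smaller size. It measured 65.3, 55.3 and 71.2 in nTg against 114, 171 and 184 in SOD1G93A, and 53.4, 71.7, 55.6 and 53.0 in Clec7a-KO against 164, 139, 155 and 162 in SOD1G93A/Clec7a-KO. Its log2 fold changes were 1.29 ± 0.18 (adjusted p = 0.00013) and 1.41 ± 0.16 (adjusted p = 8.9e-06). The pump Abca1, which loads cholesterol onto lipoproteins, measured 74.2, 69.9 and 79.6 in nTg and 196, 297 and 277 in SOD1G93A. In Clec7a-KO it measured 70.4, 109, 69.2 and 52.2, and in SOD1G93A/Clec7a-KO 241, 206, 114 and 114. The last 2 libraries lay just above the highest Clec7a-KO library, so the groups touched without overlapping (1.78 ± 0.31 and 1.17 ± 0.27, adjusted p = 0.0006 and 0.0026). Abcg1, which exports cholesterol to formed lipoproteins, measured 15.6, 17.8 and 23.6 in nTg and 63.6, 88.1 and 99.5 in SOD1G93A. It measured 18.1, 27.6, 21.2 and 27.4 in Clec7a-KO and 86.7, 73.5, 77.6 and 73.0 in SOD1G93A/Clec7a-KO, with no overlap (2.15 ± 0.21 and 1.72 ± 0.18, adjusted p = 4.8e-06 and 4.3e-06).

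**Figure D2:**
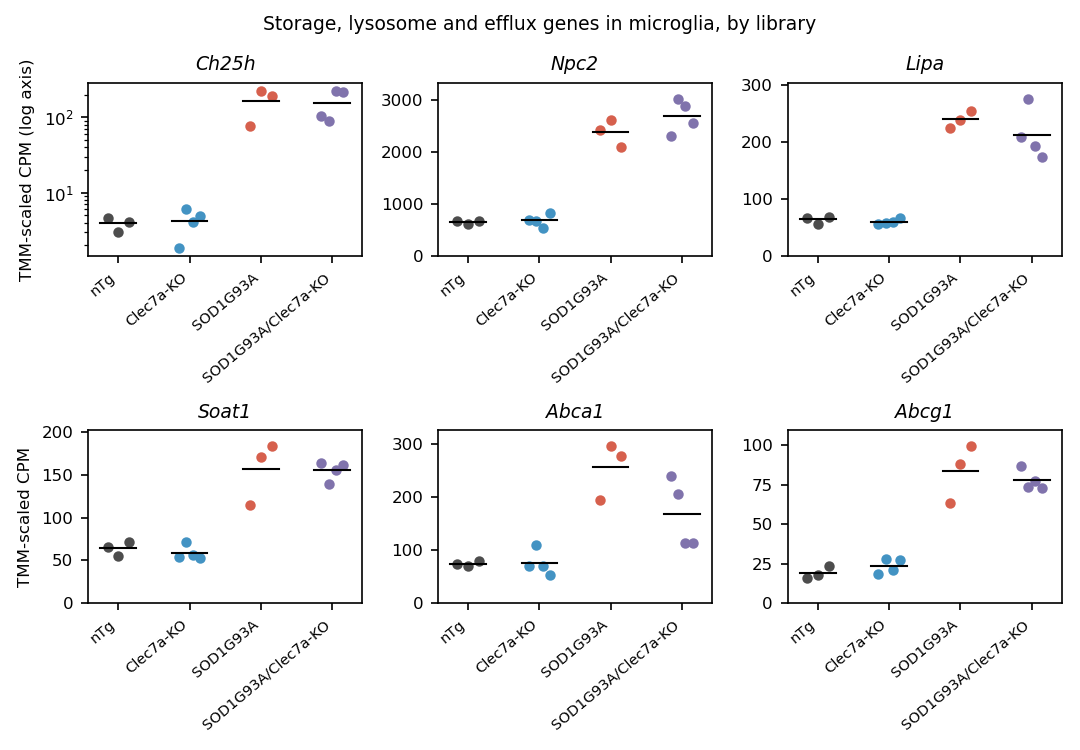
TMM-scaled CPM of 6 storage, lysosomal and efflux genes in microglia, 1 point per library and a line at each group mean (log axis for Ch25h alone, other axes from 0). Every library with the transgene lies above every library without it for these 6 genes, for example 2096 to 3016 against 539 to 826 for Npc2.

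These 6 calls held in microglia in both comparisons under every other tool, filter, covariate, clustering and left-out library run on all microglia. They also stayed higher when library totals replaced the TMM scale, with log2 fold changes of 0.82 to 4.90 in SOD1G93A and 0.66 to 4.68 in SOD1G93A/Clec7a-KO, although Abca1 did not pass the test in the second on that scale. On library totals the median of all genes was -0.45 in the first comparison and -0.51 in the second, so TMM values are changes relative to that shift. Size factors of the DESeq2 type in place of TMM gave 11 and 19 called genes.

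The synthesis enzymes moved less in microglia, and how many rose depended on the scale. On the TMM scale 5 of 18 rose in SOD1G93A (Mvk, Pmvk, Fdps, Ebp and Dhcr7) and 12 of 18 in SOD1G93A/Clec7a-KO, none fell, and the median log2 fold change was 0.22 and 0.60. Of all genes 20% and 26% were called higher on that scale, so the first count is near the share over all genes. On library totals 2 rose and 6 fell in SOD1G93A, and 4 rose and 4 fell in SOD1G93A/Clec7a-KO, while all 30 genes then split into 8 higher and 8 lower, and 9 higher and 8 lower. Of all genes 9.14% were called higher and 35.6% lower on library totals in SOD1G93A, and 11.7% and 47% in SOD1G93A/Clec7a-KO (44.8% and 58.8% in all). Pmvk and Dhcr7 were called higher on both scales in both comparisons. The 18 enzymes summed to 298 to 326 in nTg, 316 to 429 in SOD1G93A, 241 to 268 in Clec7a-KO and 361 to 402 in SOD1G93A/Clec7a-KO on the TMM scale. On CPM without TMM the group means were 374, 330, 297 and 308 in the same order, so the order of SOD1G93A and nTg turned.

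**Figure D3:**
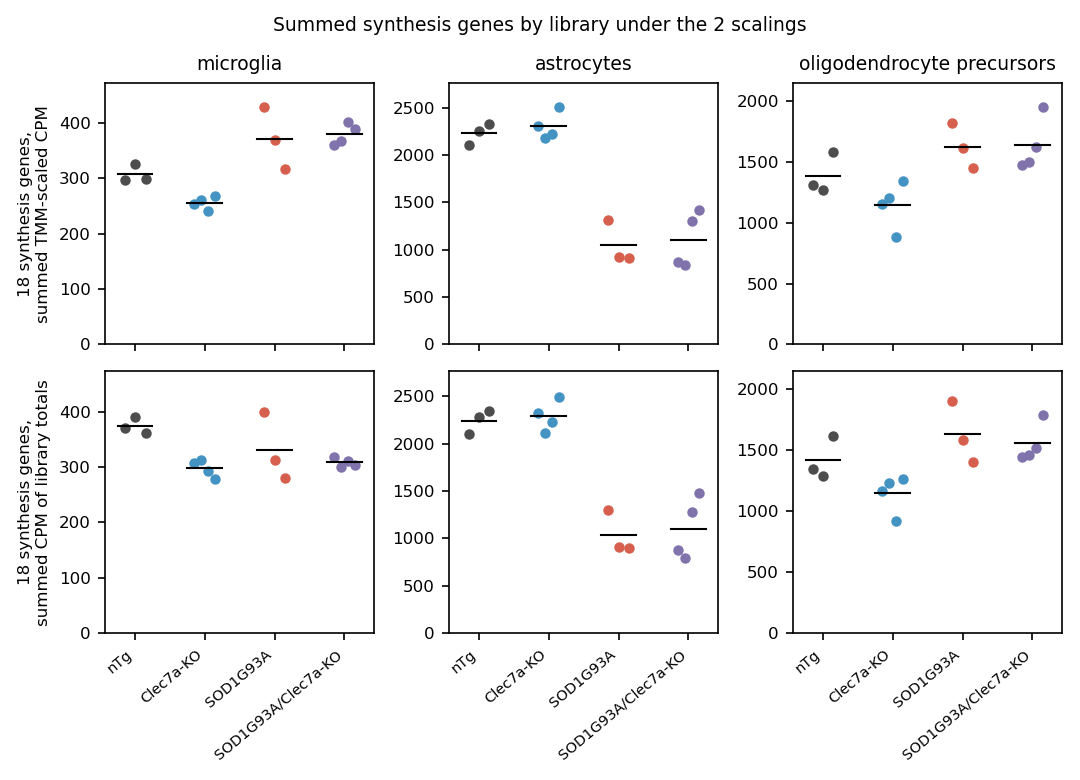
Summed CPM of the 18 synthesis genes in each library (points; lines are group means) for the 3 classes, on the TMM scale above and on library totals below. Astrocyte sums with the transgene lie below all sums without it on both scales, while in microglia the SOD1G93A mean lies above nTg on the TMM scale and below it on library totals (330 against 374).

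Along the pathway, Pmvk and Dhcr7 had the highest fold changes in SOD1G93A microglia on the TMM scale, and Pmvk and Mvk in SOD1G93A/Clec7a-KO. Pmvk, phosphomevalonate kinase, measured 14.8, 15.2 and 12.8 in nTg and 42.2, 31.8 and 25 in SOD1G93A. It measured 14.9, 12.5, 12.8 and 14.9 in Clec7a-KO and 33.3, 41.8, 36.8 and 28.9 in SOD1G93A/Clec7a-KO, with no overlap (1.20 ± 0.19 and 1.35 ± 0.16, adjusted p = 0.00026 and 1.6e-05). Mvk, mevalonate kinase, measured 5.67, 8.54 and 5.64 in nTg and 14.7, 9.14 and 8.99 in SOD1G93A. For Mvk the pair Clec7a-KO and SOD1G93A/Clec7a-KO was farther apart, with 6.38, 3.86, 5.68 and 4.69 against 11.5, 13.7, 13.3 and 9.91 (0.72 ± 0.24 and 1.23 ± 0.22, adjusted p = 0.034 and 0.00036). Dhcr7, which reduces 7-dehydrocholesterol to cholesterol, measured 4.74, 8.28 and 6.58 in nTg and 16.1, 12.9 and 13.2 in SOD1G93A. Without Clec7a it measured 6.86, 5.30, 7.49 and 8.61 against 13.3, 17.2, 20.9 and 13.6 with the transgene, again without overlap (1.11 ± 0.24 and 1.21 ± 0.20, adjusted p = 0.0024 and 0.00026).

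Fdps, farnesyl diphosphate synthase, measured 11.6, 16.8 and 14.5 in nTg and 31.7, 23.5 and 20.0 in SOD1G93A. It measured 12.2, 14.2, 11.6 and 17.1 in Clec7a-KO and 24.4, 20.7, 37.2 and 43.7 in SOD1G93A/Clec7a-KO (0.81 ± 0.27 and 1.19 ± 0.23, adjusted p = 0.03 and 0.0009). No group with the transgene overlapped its control for Fdps. Ebp measured 45.9, 60.4 and 51.0 in nTg and 99.5, 88.6 and 77.7 in SOD1G93A, and 56.5, 55.2, 51.7 and 60.8 in Clec7a-KO against 87.6, 103, 90.8 and 84.5 in SOD1G93A/Clec7a-KO (0.76 ± 0.14 and 0.70 ± 0.12, adjusted p = 0.00086 and 0.00029). Ebp was called in both comparisons on the TMM scale and in neither on library totals (0.30 and 0.19). Sqle, squalene epoxidase, rose in SOD1G93A/Clec7a-KO, from 5.42, 4.11, 3.10 and 3.91 to 7.42, 6.59, 9.37 and 9.50 (0.97 ± 0.20, adjusted p = 0.0013). In SOD1G93A it measured 9.65, 7.26 and 5.95 against 6.35, 7.18 and 6.19 in nTg, values that overlapped, and no enzyme's difference between the 2 comparisons passed the test. Mvd, which makes isopentenyl diphosphate, rose by 0.83 ± 0.20 (adjusted p = 0.0033), from 4.82, 5.16, 3.75 and 5.95 to 8.16, 9.74, 7.39 and 9.68, and had 0.46 ± 0.22 in SOD1G93A. Hsd17b7, the 3-ketosteroid reductase, measured 3.41, 1.65, 1.94 and 1.33 in Clec7a-KO and 4.21, 4.87, 3.09 and 2.42 in SOD1G93A/Clec7a-KO, which overlapped (0.79 ± 0.29, adjusted p = 0.035).

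The other enzymes called in SOD1G93A/Clec7a-KO on the TMM scale were Fdft1 (0.65), Tm7sf2 (0.55), Nsdhl (0.45) and Cyp51 (0.45), of which Nsdhl and Cyp51 had -0.07 and -0.08 on library totals. Hmgcs1, Idi1, Lss, Msmo1, Sc5d and Acat2 passed the test in neither comparison on the TMM scale, with -0.58 (Idi1) as the lowest value. Acat2 has a near-identical copy, Acat3, so its counts are uncertain. Leaving out 1 library ended some calls. In SOD1G93A, Mvk was not called without any 1 of 6 libraries (adjusted p up to 0.23, without SOD1G93A replicate 1), nor Fdps without any 1 of 4 (up to 0.15, without the same library). With sex as covariate neither was called, with Mvk at 0.57 (adjusted p = 0.14; 0.72 without it) and Fdps at 0.84 (adjusted p = 0.065), no smaller than without it. With the library number as covariate Mvk had 0.57 (adjusted p = 0.077). Library numbers were 1, 5 and 6 in SOD1G93A and 8, 9 and 12 in nTg. Number and group thus ran together in the SOD1G93A comparison of every class. The numbers were 2, 3, 13 and 15 in SOD1G93A/Clec7a-KO and 4, 7, 10 and 16 in Clec7a-KO, which were mixed in order. Sex was unevenly spread: Xist exceeded Ddx3y, the sign of a female library, in 0 of 3 SOD1G93A and 2 of 3 nTg libraries, and in 1 of 4 in SOD1G93A/Clec7a-KO and 1 of 4 in Clec7a-KO. In SOD1G93A/Clec7a-KO, Tm7sf2 was lost without any 1 of 11 libraries (up to 0.19), Hsd17b7 of 7 (up to 0.14), Nr1h2 of 6 (up to 0.14), Cyp51 of 5 (up to 0.086), and Fdft1 and Nsdhl of 3 each (up to 0.075 and 0.16). For these 6, the largest p came without SOD1G93A/Clec7a-KO replicate 2 (Hsd17b7), replicate 1 (Cyp51) or replicate 3 (the others). With only the 2 groups compared in the fit, Hsd17b7, Nr1h2, Fdft1, Tm7sf2 and Nsdhl were not called (adjusted p = 0.055 to 0.14). At the coarser clustering (Leiden resolution 0.5) Hsd17b7, Nr1h2, Tm7sf2 and Nr1h3 were not called (adjusted p = 0.060, 0.086, 0.062 and 0.053).

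Of the control genes, 0 of 5 passed the test in SOD1G93A microglia and 2 of 5 in SOD1G93A/Clec7a-KO, where 33.4% and 47.3% of all genes did. Nr1h3, liver X receptor alpha, measured 0.988, 0.773, 0.258 and 0.704 in Clec7a-KO and 1.54, 1.64, 1.69 and 1.24 in SOD1G93A/Clec7a-KO (1.12 ± 0.30, adjusted p = 0.0077), with no overlap at a low level. In nTg it measured 0.620, 0.943 and 0.705 and in SOD1G93A 1.73, 1.34 and 1.25 (0.93 ± 0.35, adjusted p = 0.052). Nr1h2, liver X receptor beta, rose by 0.43 ± 0.16 on the TMM scale (adjusted p = 0.035) and had -0.09 on library totals. Insig1 measured 67.2, 73.6 and 71.1 in nTg and 42.6, 49.7 and 36.5 in SOD1G93A (-0.72 ± 0.29, adjusted p = 0.066), and on library totals it was called lower in both comparisons (-1.18 and -0.99). Srebf2 had -0.15 ± 0.13 and 0.22 ± 0.11, and Mylip -0.09 ± 0.25 and -0.54 ± 0.22, none of which passed the test on the TMM scale. On library totals Srebf2 was called lower in both comparisons (-0.60 and -0.30) and Mylip in the second (-1.06), and Nr1h3 was not called (0.48 and 0.60).

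The groups differed in which microglial clusters they held. Cluster 7, led by P2ry12, Tmem119 and Crybb1, held 70.1% to 75.4% of nTg microglia and 56.4% to 88.4% of Clec7a-KO, but 0.433% to 9.70% of SOD1G93A and 0.820% to 6.33% of SOD1G93A/Clec7a-KO. The transgenic libraries held mostly clusters 0 (Ccl4, Il1b), 3 (C1qa, Hcar2), 4 (Olr1, Spp1) and 5 (Gpnmb, Atp6v0d2). Clusters 4 and 5 had enough cells in the 7 transgenic libraries alone, so clusters are compared here within SOD1G93A. There Ch25h averaged 214 ± 55.6 CPM in cluster 4 and 203 ± 110 in cluster 1 (Ifit2, Ifit3), against 24.7 ± 4.59 in cluster 6 (Marcksl1, Batf, P2ry12; n = 3) and 6.90 ± 4.57 in cluster 7 (n = 2). Lipa averaged 315 ± 22.2 in cluster 5 and 94.8 ± 8.27 in cluster 6, and Abcg1 98.2 ± 9.56 and 42.0 ± 5.59. Npc2 averaged 2588 ± 323 and 1525 ± 232 in the same clusters. The summed synthesis enzymes averaged 473 in the dividing cluster 19 (Mki67, Top2a). Within cluster 7 alone 1 of 29 genes was called in each comparison, Ch25h (4.04 and 3.06), where 0.467% and 0.482% of genes were called. Within cluster 6 alone 4 rose and 5 fell in SOD1G93A (2.78% of genes called): Ch25h, Abca1, Abcg1 and Npc2 rose by 4.41, 1.53, 1.14 and 1.01, and Idi1, Insig1, Sc5d, Msmo1 and Hmgcs1 had -1.39, -1.27, -1.06, -0.88 and -0.76. In SOD1G93A/Clec7a-KO, cluster 6 had 5 higher (Ch25h, Mvk, Npc2, Abcg1 and Lipa) and 4 lower (Idi1, Msmo1, Sc5d and Srebf2), with 10.4% of genes called. Within cluster 7 the storage and lysosomal genes summed to 994 ± 56.8 CPM in nTg (n = 3) and 1650 ± 140 in SOD1G93A (n = 2), a sum on which no test was run. These within-cluster fits were added after the data were seen, and Soat1 had -0.37 and -0.11 within cluster 7. Hsd17b7, Cyp51, Fdft1 and Sqle were called higher over all SOD1G93A/Clec7a-KO microglia. Within cluster 6 and within cluster 7 they had values below 0 that did not pass the test. Among other measures, genes induced by warm enzymatic dissociation (a list of 16) summed to 33761 to 40428 in nTg microglia and 22394 to 25898 in SOD1G93A, with 6 of 16 called lower, and 10 of 16 in SOD1G93A/Clec7a-KO, where 13.4% and 21.3% of all genes were called lower. Depth also differed: microglia had a median of 7775 to 10560 UMIs per cell in nTg and 9016 to 22020 in SOD1G93A. The medians were 5386 to 11270 in Clec7a-KO and 9108 to 12900 in SOD1G93A/Clec7a-KO. The part of the dissociation genes and of depth in these results was not tested.

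In astrocytes the synthesis enzymes fell together in the cords with the transgene. In SOD1G93A 13 of 18 fell and none rose, with a median of -1.14, and in SOD1G93A/Clec7a-KO 16 of 18 fell and none rose, with a median of -1.22. Over all 30 genes, edgeR called 18 in the first comparison, 3 higher and 15 lower, where 32.7% of 12842 genes were called, 17.5% higher and 15.2% lower. It called 23 in the second, 5 higher and 18 lower, where 34.3% were called, 18.6% higher and 15.7% lower. The genes called in both were 17, that is 17 of 18 and 17 of 23. The counts by direction were the same on library totals, on which the median of all genes was -0.04 and -0.06. The genes' median log2 fold change was -0.57 and -0.89. Groups did not overlap for 21 of 30 genes in the first comparison (48.8% of all genes) and 15 in the second (25.2%). The 18 enzymes summed to 2109 to 2329 on the TMM scale in nTg, 2181 to 2509 in Clec7a-KO, 911 to 1312 in SOD1G93A and 835 to 1420 in SOD1G93A/Clec7a-KO, so the sums with and without the transgene lay apart. Depth and mitochondrial share moved with the groups. Astrocytes had a median of 5148 to 6304 UMIs per cell in nTg and 2697 to 5191 in SOD1G93A, and 2795 to 6684 in Clec7a-KO and 2362 to 3791 in SOD1G93A/Clec7a-KO. Over all barcodes of a library the median mitochondrial share was 2.61% to 4.46% in nTg and 1.47% to 2.15% in SOD1G93A, and 1.90% to 4.60% in Clec7a-KO and 0.889% to 1.58% in SOD1G93A/Clec7a-KO. Their part in the astrocyte values was not tested.

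Idi1, isopentenyl diphosphate isomerase, measured 123, 141 and 150 in nTg astrocytes and 48.2, 40.1 and 41.2 in SOD1G93A. It measured 143, 133, 132 and 165 in Clec7a-KO and 30.3, 19.3, 40.4 and 85.8 in SOD1G93A/Clec7a-KO. The highest of the transgenic values, 85.8, came from the library with 35 astrocytes and was still below every control (-1.68 ± 0.25 and -2.08 ± 0.25, adjusted p = 6.9e-05 and 6.5e-06). Dhcr7 measured 87.4, 116 and 114 in nTg and 42.0, 29.6 and 28.1 in SOD1G93A, and 99.8, 93.9, 105 and 146 in Clec7a-KO against 29.8, 34.7, 57.9 and 52.8 in SOD1G93A/Clec7a-KO. Its groups were apart in both comparisons (-1.70 ± 0.24 and -1.48 ± 0.23, adjusted p = 4.8e-05 and 7e-05). Tm7sf2, a sterol reductase that acts after Cyp51, measured 31.0, 39.2 and 49.7 in nTg and 14.3, 10.5 and 9.89 in SOD1G93A (-1.84 ± 0.32, adjusted p = 0.00029), and had -1.51 ± 0.30 in SOD1G93A/Clec7a-KO. Fdps measured 112, 100, 83.5 and 148 in Clec7a-KO and 38.6, 20.2, 52.7 and 59.4 in SOD1G93A/Clec7a-KO (-1.53 ± 0.27, adjusted p = 0.00027), and had -1.15 ± 0.28 in SOD1G93A.

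Hmgcs1, whose promoter stretch held the sterol element and 3 CCAAT boxes, measured 279, 268 and 289 in nTg and 146, 109 and 107 in SOD1G93A (-1.22 ± 0.25, adjusted p = 0.0014). It measured 288, 277, 239 and 224 in Clec7a-KO and 100, 73.3, 125 and 231 in SOD1G93A/Clec7a-KO (-1.14 ± 0.24, adjusted p = 0.0011). Only the library with 35 astrocytes, at 231, reached into the range of its controls. The rest of the chain had like values: Lss (-1.50 and -1.26), Nsdhl (-1.37 and -1.15), Msmo1 (-1.35 and -1.32), Sqle (-1.12 and -1.24), Sc5d (-1.07 and -1.11) and Cyp51 (-1.02 and -1.29) fell in both comparisons. Mvk (-0.92), Acat2 (-1.20) and Hsd17b7 (-0.78) fell in SOD1G93A/Clec7a-KO, and in SOD1G93A they had -0.53, -0.50 and -0.24 without passing the test. Pmvk (0.27 and -0.04) and Ebp (-0.13 and 0.07) passed it in neither. Fdft1 and Mvd fell in both (-1.18 and -0.86, -1.14 and -1.31). Of these calls, Mvd was lost in SOD1G93A without any 1 of 4 libraries (adjusted p up to 0.17, without SOD1G93A replicate 3), with sex as covariate (-1.23, adjusted p = 0.060) and with the library number (-0.70, adjusted p = 0.13). In SOD1G93A/Clec7a-KO, Mvd (up to 0.063), Fdft1 (up to 0.099) and Hsd17b7 (up to 0.078) were each lost without any 1 of 2 libraries, among them SOD1G93A/Clec7a-KO replicate 1 for all 3.

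Insig1, the sterol-sensing brake on SREBP2 and itself a target of it, had the lowest fold change among the control genes. It measured 129, 203 and 240 in nTg and 67.6, 26.1 and 28.9 in SOD1G93A, and 214, 140, 218 and 346 in Clec7a-KO against 28.1, 23.1, 70.2 and 132 in SOD1G93A/Clec7a-KO. Each transgenic group lay below its own control group, although the highest SOD1G93A/Clec7a-KO library (132) was above the lowest nTg library (129) (-2.28 ± 0.45 and -2.31 ± 0.43, adjusted p = 0.00091 and 0.0004). Srebf2 itself had -0.49 ± 0.23 and -0.37 ± 0.21 and did not pass the test. The 2 liver X receptor genes were not called either (0.70 and 0.43 for Nr1h3, 0.08 and 0.29 for Nr1h2). Npc1 was not called (-0.29 and -0.32). Soat1 fell by 0.61 and 0.62 in the 2 comparisons (adjusted p = 0.019 and 0.0088), opposite to its direction in microglia. Its SOD1G93A call was lost with sex as covariate (-0.57, adjusted p = 0.084) and without SOD1G93A replicate 1 or nTg replicate 1 (adjusted p = 0.071 and 0.053).

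**Figure D4:**
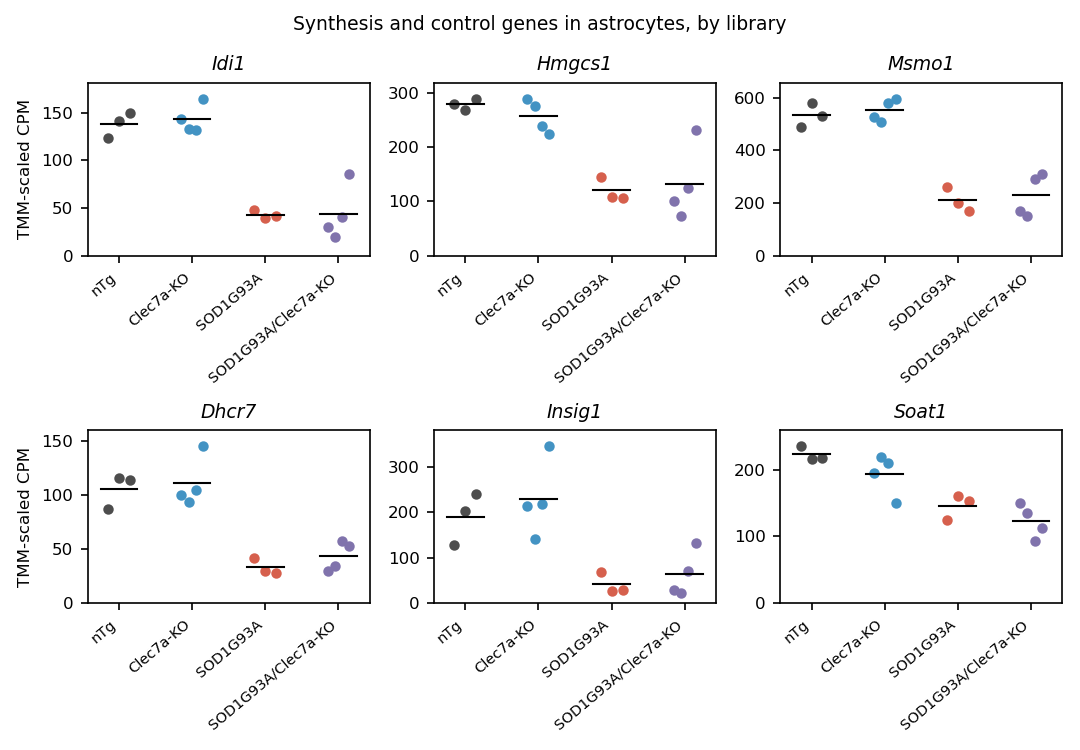
TMM-scaled CPM of 4 synthesis genes, Insig1 and Soat1 in astrocytes, 1 point per library with a line at each group mean and axes from 0. Idi1, Msmo1 and Dhcr7 lie lower in every library with the transgene than in any without it, Insig1 lies below its own control group in both comparisons, and 1 SOD1G93A/Clec7a-KO library (35 astrocytes) reaches the controls for Hmgcs1 at 231.

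A few genes of control, storage and efflux were higher in transgenic astrocytes. Ch25h had 1 UMI in all nTg astrocytes and 53 in SOD1G93A, a ratio of 123 per UMI sequenced (95% exact interval for counting error 21.1 to 4942). It had 1 UMI in Clec7a-KO and 55 in SOD1G93A/Clec7a-KO (ratio 150.2, 25.9 to 6038). By library it measured 4.10, 11.3 and 14.2 in SOD1G93A and 11.4, 27.0, 1.76 and 0 in SOD1G93A/Clec7a-KO, so the 2 last libraries carried few or none. Npc2 rose by 0.94 ± 0.27 (adjusted p = 0.012) and 1.29 ± 0.24 (adjusted p = 0.00038), from 258, 246 and 237 to 614, 404 and 411, and from 301, 278, 206 and 288 to 616, 1048, 479 and 442. Abcg1 rose in SOD1G93A/Clec7a-KO, from 1.79, 0, 0.780 and 0.904 to 14, 12.5, 1.76 and 6.60 (3.21 ± 0.57, adjusted p = 0.00029), and had 1.25 ± 0.65 in SOD1G93A. Abcg1 had only 95 UMIs over all astrocytes. Its SOD1G93A/Clec7a-KO replicate 3 (1.76) lay within the range of the controls, and replicate 4 (6.60) came from 35 cells. Lipa (0.95) and Mylip (1.16) were called higher in SOD1G93A/Clec7a-KO, and Abca1 (0.71 ± 0.26, adjusted p = 0.041) in SOD1G93A. Lipa measured 31.1, 23.7, 31.2 and 27.1 in Clec7a-KO against 60.1, 89.7, 19.3 and 13.2 in SOD1G93A/Clec7a-KO. The last 2 of these libraries lay below every control. Mylip measured 13.6, 11.9, 12.5 and 13.6 against 36.4, 33.7, 12.3 and 13.2, so its higher values came from replicates 1 and 2 alone. The calls of Npc2 (SOD1G93A) and Mylip were lost without replicate 1 of the transgenic group (adjusted p = 0.063 and 0.052), and that of Npc2 also with sex as covariate (0.67, adjusted p = 0.13), where no SOD1G93A library and 2 of 3 nTg libraries read as female. Lipa was lost without any 1 of 3 libraries (up to 0.19, without SOD1G93A/Clec7a-KO replicate 2), and Abca1 of 6 (up to 0.18, without SOD1G93A replicate 3). Over the alternatives run on all astrocytes, library totals apart, the fold change of Lipa ranged from 0.56 to 1.20. Abca1 was also lost with sex (0.57, adjusted p = 0.22) or the library number (0.42, adjusted p = 0.17) as covariate, and Lipa with the library number (0.67, adjusted p = 0.062) or in DESeq2 (0.86, adjusted p = 0.057).

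The 12 microglial markers, all of them detected in astrocytes, moved with these genes. They summed to 213 to 383 in nTg astrocytes, 240.5 to 789 in Clec7a-KO, 1387 to 4355 in SOD1G93A and 1852 to 10254 in SOD1G93A/Clec7a-KO. As a share of the level in microglia of the same library they stood at 0.811% to 1.49% in nTg, 3.49% to 10.5% in SOD1G93A and 4.55% to 22.5% in SOD1G93A/Clec7a-KO. Ch25h in astrocytes stood at 5.06% to 7.43% of its level in microglia in SOD1G93A, and at 0% to 30.7% in SOD1G93A/Clec7a-KO. Abcg1 stood at 3.96% to 4.83% and 2.26% to 17.1%, and Mylip at 3.73% to 14.7% and 10.4% to 25.1%. Npc2 stood at 15.5% to 25.5% and 16.7% to 34.7%, below its 35.5% to 40.9% in nTg and 34.9% to 44.0% in Clec7a-KO. Lipa stood at 11.0% to 21.5% and 7.67% to 32.6%, and Abca1 at 81.9% to 101% and 92.6% to 106%. In nTg and Clec7a-KO, Lipa stood higher, at 35.5% to 56.8% and 40.7% to 55.4%. Abca1 was also higher there, at 179% to 204% and 174% to 214%. In the same 2 groups Ch25h stood at 0% to 5.72% and 0% to 8.49%. Abcg1 stood there at 4.03% to 16.4% and 0% to 9.90%, and Mylip at 5.16% to 9.30% and 5.39% to 10.7%. The part of microglial RNA in these astrocyte values was not tested. The dissociation list also moved, with 12 and 13 of 16 genes higher (17.5% and 18.6% of all genes), summing to 822 to 960 in nTg astrocytes, 1398 to 3000 in SOD1G93A and 1850 to 5937 in SOD1G93A/Clec7a-KO, and its part was not tested.

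Astrocytes fell into 2 clusters, whose shares differed between the groups. Cluster 18, led by Gfap, A2m and Serpina3n, held 7.79% to 12.8% of nTg astrocytes and 7.35% to 12.8% of Clec7a-KO, against 58.8% to 79.8% of SOD1G93A and 66.5% to 95.7% of SOD1G93A/Clec7a-KO. The rest were in cluster 17, led by Slc7a10, Cldn10 and Gjb6. In nTg the 18 enzymes summed to 2306 ± 117 CPM in cluster 17 and 1448 ± 135 in cluster 18 (n = 3). In SOD1G93A they summed to 1162 ± 443 and 947 ± 77.4 (n = 3). In SOD1G93A/Clec7a-KO they summed to 1424 ± 303 (n = 2) and 1066 ± 406 (n = 4), against 2366 ± 171 and 1431 ± 354 in Clec7a-KO (n = 4). Within cluster 17 alone 9 of 28 genes fell and 1 rose in SOD1G93A (8.53% of genes called). Those that fell were Insig1 (-1.87), Dhcr7 (-1.44), Msmo1 (-1.35), Idi1 (-1.20), Fdft1 (-1.17), Nsdhl (-1.16), Tm7sf2 (-1.14), Fdps (-1.11) and Hmgcs1 (-1.02), and Npc2 rose by 1.06. In SOD1G93A/Clec7a-KO, where 2 libraries had too few cells, 3 fell (Insig1, Idi1 and Msmo1, with -1.66, -1.59 and -0.89) and Npc2 rose by 1.05 (4.13% called). Within cluster 18 alone 0 of 26 genes were called in SOD1G93A (3.39% of genes) and 1 in SOD1G93A/Clec7a-KO, Insig1 at -1.81 (5.93%). Msmo1, called lower over all astrocytes, lay just above 0 within cluster 18 in both comparisons. These fits were added after the data were seen.

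Oligodendrocyte precursors had the fewest calls of the 3 classes, among these genes and over all genes alike. In SOD1G93A 0 of 30 genes passed the edgeR test, where 1.56% of 13245 genes did. At an unadjusted p under 0.05 there were 5 of the 30, against 11.6% of all genes, and DESeq2 called 2. In SOD1G93A/Clec7a-KO 5 passed, 3 higher and 2 lower, where 4.6% of genes were called, 3.41% higher and 1.19% lower, and 16 had an unadjusted p under 0.05, against 20.3% of all genes. The number of calls depended on the setting. It was higher in both comparisons with DESeq2, no filter on low counts, a term for the replicate number or the library number as covariate. In SOD1G93A/Clec7a-KO it was lower with sex as covariate or with only the 2 groups compared in the fit. Whether the share over all genes moved alike in these settings is not given here. The genes' median log2 fold change was 0.08 and 0.30. Groups did not overlap for 10 of 30 genes in the first comparison (21.9% of all genes) and for 8 in the second (10.2%). Precursors had a median of 9546 to 11160 UMIs per cell in nTg and 5360 to 10740 in SOD1G93A. The medians were 5900 to 12530 in Clec7a-KO and 4312 to 7477 in SOD1G93A/Clec7a-KO, and the part of depth was not tested.

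Abcg1 fell in SOD1G93A/Clec7a-KO precursors, the class in which it was highest in nTg. It measured 121, 111, 137 and 105 in Clec7a-KO and 76.8, 57.7, 56.4 and 48.9 in SOD1G93A/Clec7a-KO, with no overlap (-0.95 ± 0.16, adjusted p = 0.0034). In nTg it measured 89.6, 102 and 82.4 and in SOD1G93A 49.4, 68.4 and 52.1, also apart (-0.69 ± 0.18, adjusted p = 0.065). The call in SOD1G93A/Clec7a-KO held under every other tool, normalization, filter, covariate, clustering and left-out library named in the methods, with an adjusted p of at most 0.015. Soat1 measured 83.1, 74.4, 73.4 and 65.0 in Clec7a-KO and 51.3, 54.4, 53.0 and 48.9 in SOD1G93A/Clec7a-KO (-0.51 ± 0.14, adjusted p = 0.046). In nTg it measured 77.6, 71.2 and 72.8 and in SOD1G93A 39.4, 54.8 and 52.5 (-0.60 ± 0.15, adjusted p = 0.057). No transgenic library reached its control range for Soat1 in either comparison.

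The synthesis genes Hmgcs1, Mvd and Nsdhl rose in SOD1G93A/Clec7a-KO precursors. Hmgcs1 measured 153, 185, 128 and 208 in Clec7a-KO and 246, 231, 252 and 359 with the transgene (0.68 ± 0.18, adjusted p = 0.038). Mvd measured 31.2, 19.8, 14.8 and 26.1 against 38.9, 44.6, 51.6 and 39.8 (0.89 ± 0.22, adjusted p = 0.027), and Nsdhl 23.5, 22.1, 19.3 and 22.9 against 31.7, 33.7, 47.5 and 47.1 (0.83 ± 0.19, adjusted p = 0.021). For all 3 the groups did not overlap. Log2 fold changes were above 0 for 17 of the 18 enzymes, although only these 3 passed the test. With only the 2 groups compared in the fit, these 3 and Soat1 were not called (adjusted p = 0.058 to 0.10), with fold changes close to those above (0.69, 0.90, 0.83 and -0.51). With sex as covariate Hmgcs1 and Soat1 were not called either, at 0.67 and -0.51 (adjusted p = 0.052 and 0.057). Leaving out a library also ended these 4 of the 5 calls: Soat1 without any 1 of 12 libraries (adjusted p up to 0.12, without Clec7a-KO replicate 1), Hmgcs1 of 7 (up to 0.12, without Clec7a-KO replicate 3), Nsdhl of 4 (up to 0.095) and Mvd of 3 (up to 0.10), the last 2 largest without SOD1G93A/Clec7a-KO replicate 3. The count of 5 became 1 without SOD1G93A/Clec7a-KO replicate 3 or Clec7a-KO replicate 3, 2 without Clec7a-KO replicate 2, and 11 without Clec7a-KO replicate 4. It became 3 without SOD1G93A replicate 2, SOD1G93A/Clec7a-KO replicate 4, nTg replicate 1 or Clec7a-KO replicate 1. The shares over all genes in these fits are not given here, so the changes in count cannot be set against them. Ch25h had 12 UMIs in nTg and 23 in SOD1G93A precursors, and 6 in Clec7a-KO and 15 in SOD1G93A/Clec7a-KO, ratios of 1.97 (0.940 to 4.34) and 4.34 (1.59 to 13.7), and did not pass the test. Nr1h3 had -0.75 ± 0.45 and -0.34 ± 0.51. The 12 microglial markers summed to 114 to 201 in nTg precursors and 401 to 1016 in SOD1G93A, at most 3.46% of the level in microglia in any transgenic library, and their part was not tested.

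**Figure D5:**
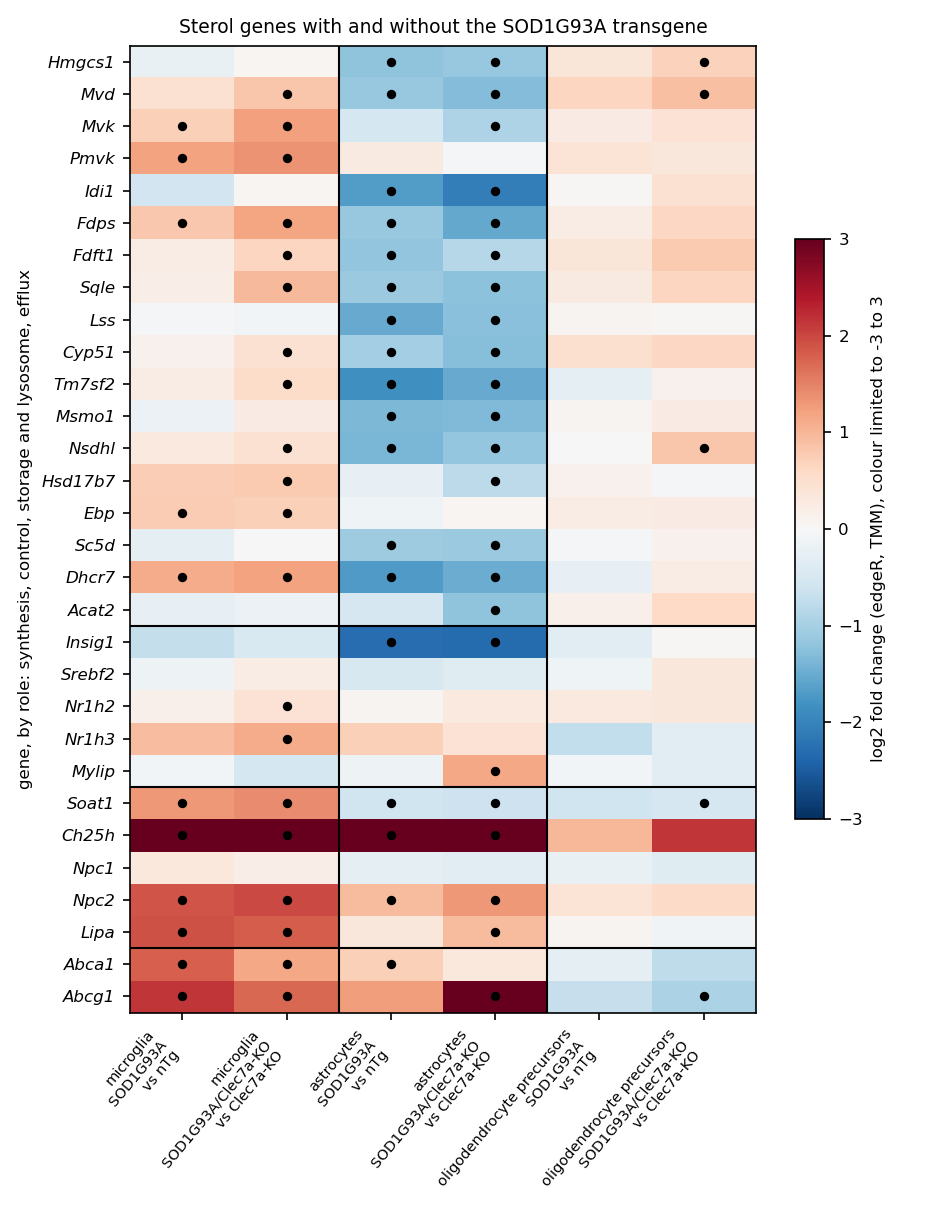
Log2 fold change of the 30 genes (rows, grouped by role) in each class and transgene comparison (columns), on edgeR's TMM scale with colours limited to -3 to 3; a black dot marks an adjusted p under 0.05. Synthesis genes are below 0 (blue) for 17 of 18 in astrocytes in both comparisons, for 6 and 3 in microglia and for 4 and 1 in precursors, while storage and efflux genes are red in microglia; on library totals the microglial synthesis genes split into 2 higher and 6 lower in SOD1G93A and 4 and 4 in SOD1G93A/Clec7a-KO.

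Whether the response differed between classes was tested itself, on the difference of the 2 classes within each library, with limma. Between microglia and astrocytes the response differed for 20 of 30 genes in SOD1G93A against nTg, where 14.7% of 11912 genes did, and for 23 in SOD1G93A/Clec7a-KO against Clec7a-KO, where 28.4% did. In all of these the change was higher in microglia. Dhcr7 differed by 2.78 ± 0.25 (SE, limma adjusted p = 2.4e-05) and 2.55 ± 0.21 (adjusted p = 6.3e-06), and Fdps by 1.93 and 2.57. Soat1, which rose in microglia and fell in astrocytes, differed by 1.88 ± 0.22 and 2.08 ± 0.19. On library totals 9 and 15 of 30 differed. The share over all genes on that scale is not given here, so these counts cannot be set against it. Without SOD1G93A replicate 2, SOD1G93A replicate 3 or nTg replicate 3, the count in SOD1G93A against nTg was 12, 13 and 12 of 30. The shares over all genes in those fits are not given here either.

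Between microglia and precursors the response differed for 12 of 30 genes in SOD1G93A, where 25.1% of 11959 genes did, and for 14 in SOD1G93A/Clec7a-KO, where 36.4% did. Ch25h differed by 4.55 ± 0.42 and 3.69 ± 0.36. The efflux pump Abcg1 stood at 2.83 ± 0.26 and 2.72 ± 0.23 (limma adjusted p = 1.1e-05 and 2.2e-06), and Abca1 at 2.02 ± 0.30 and 2.05 ± 0.26. Soat1 (1.87 and 1.92), Lipa (1.84 and 1.96) and Npc2 (1.48 and 1.44) were also higher in microglia. In the other direction, Hmgcs1 (-0.61 and -0.63) and Idi1 (-0.64 and -0.46) had the higher change in precursors in both comparisons, and Acat2 (-0.81) in the second. Without SOD1G93A replicate 2, the count in SOD1G93A was 7 of 30. The share over all genes in that fit is not given here, so this count cannot be set against it.

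With all 14 libraries in the fit, loss of Clec7a made no difference that passed the test for any of the 30 genes. In SOD1G93A/Clec7a-KO against SOD1G93A edgeR called 0 of 30 in microglia, astrocytes and precursors, where 0.0181%, 0.0156% and 0.00755% of genes were called, and 3, 2 and 1 of the 30 had an unadjusted p under 0.05, against 11.1%, 8.7% and 8.4% of all genes. In Clec7a-KO against nTg it called 0 of 30 in each class (0.0301%, 0% and 0.0151% of genes), with 6, 0 and 4 at an unadjusted p under 0.05, against 2.38%, 2.05% and 4.19% of all genes. The difference of the transgene's effect with and without Clec7a was called for 0 of 30 in each class (0%, 0% and 0% of genes), with 2, 2 and 1 at an unadjusted p under 0.05, against 2.04%, 3.27% and 2.17% of all genes. DESeq2 called 0 of 30 in each class and comparison of this paragraph. Mylip in astrocytes was called higher in SOD1G93A/Clec7a-KO against SOD1G93A with no filter on low counts (1.26, adjusted p = 0.0053), with the library number as covariate (1.32, adjusted p = 0.042) and without SOD1G93A/Clec7a-KO replicate 3 (1.48, adjusted p = 0.026). Among the values behind these counts, Mylip in astrocytes had 1.27 ± 0.32 (adjusted p = 0.27) and Fdft1 in microglia 0.53 ± 0.21 (adjusted p = 0.44) in SOD1G93A/Clec7a-KO against SOD1G93A. In microglia the same comparison gave -0.62 for Mylip and -0.60 for Abca1, with 16 of the 30 genes above 0 and 14 below. For Ch25h in microglia that difference was -0.07 ± 0.41 and for Npc2 0.18 ± 0.17. In microglia, Clec7a-KO and nTg did not overlap for 7 of 30 genes (3.84% of all genes), and in precursors for 3 (5.28%). The 6 microglial genes at an unadjusted p under 0.05 in Clec7a-KO against nTg were all synthesis enzymes with values below 0, Msmo1 (-0.55 ± 0.13), Cyp51 (-0.54), Hmgcs1 (-0.43), Sqle (-0.66), Sc5d (-0.36) and Idi1 (-0.64). In precursors all 18 enzymes were below 0 in that comparison, from -0.49 (Nsdhl) to -0.05 (Fdft1), with none past the test. These comparisons share their control groups with those of the transgene. A p above the threshold does not show that the groups were alike.

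Other genes of the same pathways were counted from fixed lists, in microglia first, where 20% of all genes were called higher and 13.4% lower in SOD1G93A, and 26% and 21.3% in SOD1G93A/Clec7a-KO. Of 8 tested targets of the liver X receptors, 4 rose in SOD1G93A and 5 in SOD1G93A/Clec7a-KO and none fell, with medians of 1.33 and 1.36. Lpl, lipoprotein lipase, rose from 73.7, 40.9 and 74.2 to 1111, 1115 and 1111, and from 65.5, 54.9, 51.7 and 70.9 to 1109, 1159, 662 and 511. Of 16 other genes of sterol transport and droplets, 7 and 8 rose, among them Plin2, a droplet coat protein (3.07 ± 0.20 and 2.98 ± 0.17), and Nceh1, which frees cholesterol from its esters (2.58 ± 0.33 and 2.67 ± 0.28). Of 11 fatty acid synthesis genes 3 rose in SOD1G93A, and 3 rose and 2 fell in SOD1G93A/Clec7a-KO. Acaca, which makes malonyl-CoA, led these with 2.97 in both, and Fasn had 1.02 and 0.95. Of 8 genes that process or hold SREBP, 2 rose in each comparison. The counts of the SREBP list and of the fatty acid list are near the shares over all genes.

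In astrocytes 3 of 12 genes of the fatty acid list were called lower in SOD1G93A and 8 of 12 in SOD1G93A/Clec7a-KO, and none higher, where 15.2% and 15.7% of all genes were called lower and 17.5% and 18.6% higher. Acss2, which makes acetyl-CoA from acetate, had -1.44 and -1.17, and the elongase Elovl6 -0.82 and -1.68. Of 8 liver X receptor targets 3 rose in each comparison and 1 fell in SOD1G93A/Clec7a-KO, with Lpl (2.65 and 4.29) and Arl4c (2.38 and 2.77) leading. Of 18 other transport genes 3 rose and 2 fell in SOD1G93A, and 4 rose and 2 fell in SOD1G93A/Clec7a-KO, and of 8 SREBP genes 1 rose and 1 fell in each. In precursors only liver X receptor targets were called among these pathway lists. They were 1 of 8 higher in SOD1G93A (1.25% of all genes) and 2 of 8 in SOD1G93A/Clec7a-KO (3.41%), Lpl among them at 1.26 and 1.52. Lpl also rose in microglia, and the part of microglial RNA in the list values of astrocytes and precursors was not tested.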

How the data were processed

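Spinal cord cells were profiled with 10x 3′ libraries after enzymatic digestion at 37 °C, per the labels' protocols. The authors deposited raw UMI counts per gene and cell barcode for each of the 14 libraries. Cell Ranger, Seurat, DESeq2 and the mm10 build are named in the submitters' processing notes, with 3.0.2 as the software version in the file headers. The members and lists were chosen with earlier results of these data known. Cells with at least 1000 UMIs, at least 500 genes and at most 15% mitochondrial UMIs were kept, and Scrublet-type scores removed 0.8% per 1000 barcodes as doublets. Clustering (scanpy 1.11.5, 2000 variable genes without the 30 members, pathway lists and sex genes, 30 components, 15 neighbours, Leiden resolution 1.0) gave 26 clusters, which were named from fixed markers, so classes may differ from those of the authors. Counts were summed per library and class (at least 20 cells) and tested with edgeR 4.0.16 (quasi-likelihood, TMM, filterByExpr, all 14 libraries in 1 fit), with Benjamini-Hochberg adjusted p under 0.05. Differences between classes were tested with limma 3.58.1 on log2 CPM (prior count 2). DESeq2 1.42.0, other scalings, filters, covariates, cluster choices and leaving out each library were alternatives. The edgeR script was tested on simulated data. Positions and exons came from GENCODE, which matched 29 of the 30 members by versioned identifier. The text gives values for the called members with the largest changes (up to 15 in microglia and 5 per comparison in the other classes) and describes all 30. A further list of pathway genes is not reported here.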

Additional observations from a re-analysis of the deposited data

Results flagged for a closer look

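In groups of 4 libraries, 12 of 180 tests had 1 library far from the other 3 (gap over range above 0.829), where chance gives about 5%. In microglia, Nsdhl stood at 10.7 CPM in SOD1G93A/Clec7a-KO replicate 3 (others 7.38 to 7.83) and Srebf2 at 46.6 in replicate 4 of that group (36.9 to 38.4). Also in microglia, Nr1h2 stood at 55.5 in Clec7a-KO replicate 4 (38.4 to 40.5) and Soat1 at 71.7 in Clec7a-KO replicate 2 (53.0 to 55.6). In astrocytes, Tm7sf2 stood at 65.1 in Clec7a-KO replicate 4 (38.6 to 42.7) and Ch25h at 0.516 in Clec7a-KO replicate 2, which is 1 UMI, with 0 in the others. In precursors, SOD1G93A/Clec7a-KO replicate 4 stood apart for Hmgcs1 at 359 (231 to 252), Tm7sf2 at 21.7 (12.5 to 13.8) and Nr1h3 at 5.43 (1.92 to 2.18). These last 2 rest on few counts. Over all precursors Nr1h3 had 100 UMIs, with as few as 2 in a library, and Tm7sf2 had 418, with as few as 11. Among Clec7a-KO precursors, Sqle stood at 143 in replicate 4 (80.1 to 89.9), Acat2 at 31.1 in replicate 3 (46.7 to 49.1) and Lipa at 32.6 in replicate 1 (39.5 to 40.8).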

How the results depend on the processing

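Of the calls in the transgene comparisons, 9 of 11 and 13 of 20 held in microglia under every other tool, normalization, filter, covariate, clustering and left-out library, library totals apart, 14 of 18 and 18 of 23 in astrocytes, and 1 of 5 in precursors. For SOD1G93A/Clec7a-KO astrocytes this covers the settings with a value: Abcg1 had none in 5 of them and Ch25h in 1, where they did not pass the filter on low counts. Values from clusters taken alone and from library totals were added after the data were seen. In microglia SOD1G93A against nTg, cluster 7 alone gave 1 call, with Soat1 at -0.37, Mvk at -0.26 and Dhcr7 at -0.16, and cluster 6 alone had Fdps at -0.56. In SOD1G93A/Clec7a-KO against Clec7a-KO, cluster 7 alone gave 1 call, with Soat1 at -0.11, Hsd17b7 at -1.57, Fdps at -0.35, Cyp51 at -0.31, Nr1h2 at -0.14, Fdft1 at -0.73, Sqle at -0.72 and Tm7sf2 at -0.48. There cluster 6 alone gave 9 calls, with Hsd17b7 at -1.52, Cyp51 at -0.48, Fdft1 at -0.46, Sqle at -0.52 and Nsdhl at -0.31. Library totals gave Cyp51 -0.078, Nr1h2 -0.086 and Nsdhl -0.071. In astrocytes, cluster 17 alone gave 10 and 4 calls and cluster 18 alone 0 and 1, with Msmo1 at 0.0021 and 0.073 and Mvk at 0.56 (SOD1G93A/Clec7a-KO). These clusters hold fewer cells, and the causes were not tested.

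For astrocytes of SOD1G93A/Clec7a-KO against SOD1G93A, no filter on low counts and the library number as covariate gave 1 call each, and leaving out 1 library gave 0 to 1 (1 without SOD1G93A/Clec7a-KO replicate 3). For precursors of SOD1G93A against nTg, DESeq2 gave 2 calls, library totals, no filter and only the 2 groups compared 1 each, the library number 3 and leaving out 1 library 0 to 1 (1 without SOD1G93A/Clec7a-KO replicate 1 or Clec7a-KO replicate 4). For precursors of SOD1G93A/Clec7a-KO against Clec7a-KO, DESeq2 gave 8, no filter 9, the library number 13, sex as covariate 3, only the 2 groups compared 1 and leaving out 1 library 1 to 11. The difference between microglia and astrocytes had 9 calls on library totals and 12 to 22 without 1 library, and 15 on library totals without Clec7a. That between microglia and precursors had 7 to 13 without 1 library. The shares over all genes in the settings of this paragraph are not given here, so its counts cannot be set against them.

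The main fit did not pair libraries by replicate number. Same-numbered libraries correlated at -0.178 to 0.373 in microglia (median 0.109, against -0.033 for other pairs). They correlated at -0.185 to 0.208 in astrocytes (0.032 against -0.0094) and -0.106 to 0.361 in precursors (0.092 against -0.031). The medians were thus higher for same-numbered libraries, while their ranges lay within those of other pairs. In microglia, libraries with different numbers spanned -0.470 (SOD1G93A/Clec7a-KO replicate 1 with Clec7a-KO replicate 4) to 0.488 (SOD1G93A/Clec7a-KO replicate 3 with Clec7a-KO replicate 4, library numbers 13 and 16). With the library number as covariate, Abca1 in SOD1G93A/Clec7a-KO microglia, lowest in replicates 3 and 4, had 1.05 (adjusted p = 0.0005). With the replicate block, precursors had 2 calls in SOD1G93A and 10 in SOD1G93A/Clec7a-KO, against 0 and 5, and the shares over all genes in that fit are not given here. Mature oligodendrocytes alone could not be run. At Leiden resolution 0.5 the cluster led by Gpnmb and Spp1 stayed unnamed, and Nr1h3, Hsd17b7, Nr1h2 and Tm7sf2 were then not called in SOD1G93A/Clec7a-KO microglia. Few astrocytes in some libraries limit the values of low genes.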
